A study of Mus musculus with 2 samples.

Results

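Hemoglobin and red cell genes of the mouse liver were examined as a readout of the blood that a liver holds. The 6 members were chosen by gene symbol from the 24054 genes of a deposited expression table: the beta globin genes Hbb-bs and Hbb-bt, the alpha globin genes Hba-a1 and Hba-a2, the heme enzyme gene Alas2 and the red cell membrane gene Slc4a1. They were proposed with earlier results from the same 2 libraries in view, among them the lower level of Hbb-bs in the knockout, so the knockout and wild-type levels of the members are a description and carry no test.

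The study compared liver RNA of Pgrmc1 KO mice with that of wild-type (WT) mice. Pgrmc1 is an X-linked gene for a heme-binding membrane protein, and the KO males (Pgrmc1 -/Y) lack it in the whole body. They come from a C57BL/6N line in which the first exons of Pgrmc1 lie between loxP sites, with a neomycin resistance cassette in the targeted allele, crossed to Sox2-Cre mice, a driver active in the early embryo. All mice were C57BL/6 males aged 8 to 12 weeks, and the sources used here do not give the Cre and loxP status of the WT mice. RNA of 5 mice per genotype was pooled, 2.5 μg from each, and each pool gave 1 stranded total RNA library. Whether the livers were perfused, and whether globin transcripts were depleted in library preparation, is not given in the sources used here. With 1 pooled library per genotype, variation from mouse to mouse is unknown and the differences have no replicate check.

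Hemoglobin is a tetramer of alpha and beta globin chains that each carry a heme, and it fills the mature red cell. In the mouse each chain is encoded by a pair of nearly identical adult genes, which arose by duplication. Young red cells, the reticulocytes, still hold globin and Alas2 mRNA, while mature red cells have lost their nucleus and carry less RNA, so globin transcripts in an adult liver are usually read as a trace of blood. Alas2 makes the erythroid form of the enzyme that starts heme synthesis, and Slc4a1 makes band 3, the chloride and bicarbonate exchanger that also anchors the red cell skeleton. Hbb-bs and Hbb-bt are the adult beta globin genes of the C57BL/6 haplotype, and the symbols Hbb-b1 and Hbb-b2 belong to the corresponding pair of another mouse haplotype.

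By RefSeq on GRCm38.p6, the members lie on chromosomes 7, 11 and X. Hbb-bs spans chr7:103826523-103827928 and Hbb-bt spans chr7:103812524-103813923. Hba-a1 spans chr11:32283672-32284486 and Hba-a2 spans chr11:32296492-32297310. Slc4a1 spans chr11:102348820-102365281, and Alas2 spans chrX:150547417-150570622.

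The members of each globin pair differ by a single coding base, which decides how far a sequencing read can be assigned to one of them. The stretches of 55 coding bases around that base are shown for this reason, 5′ to 3′ on the coding strand, from GENCODE M21 transcripts on GRCm38, with the base that differs in capitals. The beta stretches are chr7:103826665-103826719 and chr7:103812656-103812710, both on the minus strand and both ending with the stop codon. The alpha stretches are chr11:32284316-32284370 and chr11:32297133-32297187, both on the plus strand.
Hbb-bs: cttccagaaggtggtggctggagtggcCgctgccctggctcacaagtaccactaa
Hbb-bt: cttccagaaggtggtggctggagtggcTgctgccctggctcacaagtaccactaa
Hba-a1: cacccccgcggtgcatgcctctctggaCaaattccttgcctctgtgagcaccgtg
Hba-a2: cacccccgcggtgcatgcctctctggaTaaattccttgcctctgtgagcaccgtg

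Counted from the A of the start codon, the beta pair differs by C417T (Hbb-bs first) over 444 coding bases and the alpha pair by C381T (Hba-a1 first) over 429 coding bases. Neither base changes the protein, since 0 of 147 beta residues and 0 of 142 alpha residues differ. Over the whole transcripts, 62.6% of the 100-base windows of Hbb-bs were also found in Hbb-bt, and 54.8% of those of Hbb-bt in Hbb-bs. For the alpha pair, 56.5% of the windows of Hba-a1 were found in Hba-a2 and 74.5% of those of Hba-a2 in Hba-a1. A read that lies in a shared window can by itself be assigned to either copy. The libraries were sequenced as pairs of 100-base reads, and a pair is shared only where both of its reads are. These window shares are thus not the shares of pairs that cannot be told apart. The authors' quantifier, RSEM, splits reads that fit more than a single gene between those genes. The level of a single copy therefore depends on that split, while the reads summed over all copies do not. A sum of levels corrected for transcript length can still shift with the split, since the copies differ in length. The transcripts used here have 628 bases for Hbb-bs, 703 for Hbb-bt, 699 for Hba-a1 and 554 for Hba-a2.

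Upstream sequence, in contrast, sets the beta copies apart more than the alpha copies. The 100 bases before each RefSeq start are printed to show this, on the gene's own strand, from the RefSeq promoter table on GRCm38.p6. Capitals mark 4 motifs searched on both strands. CACCC is the motif of Klf1 and its relatives, CCAAT is a common promoter box, GATAA is the motif of Gata1 and its relatives, and ATATAA is a form of the TATA box. The windows are chr7:103827929-103828028 (minus), chr7:103813924-103814023 (minus), chr11:32283572-32283671 (plus), chr11:32296392-32296491 (plus) and chrX:150547317-150547416 (plus), in the order printed.
Hbb-bs: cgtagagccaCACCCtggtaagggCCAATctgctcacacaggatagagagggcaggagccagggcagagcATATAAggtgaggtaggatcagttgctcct
Hbb-bt: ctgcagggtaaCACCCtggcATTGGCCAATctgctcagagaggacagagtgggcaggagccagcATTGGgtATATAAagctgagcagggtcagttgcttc
Hba-a1: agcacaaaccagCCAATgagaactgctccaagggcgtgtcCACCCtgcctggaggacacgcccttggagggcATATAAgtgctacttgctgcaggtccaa
Hba-a2: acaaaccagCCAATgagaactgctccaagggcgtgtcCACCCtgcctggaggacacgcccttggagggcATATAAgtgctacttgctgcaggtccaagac
Alas2: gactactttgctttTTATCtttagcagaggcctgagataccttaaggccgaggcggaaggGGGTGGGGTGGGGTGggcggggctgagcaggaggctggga

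The alpha promoters were identical over 247 of 247 compared bases of the 250 upstream, once shifted by 3 bases, and over 97 of 97 in the last 100. Compared in the same way, without gaps, the beta promoters matched at 127 of 249 bases of the 250 (51.0%). In the last 100 they matched at 73 of 99 (73.7%). All 4 globin windows held CACCC as well as CCAAT, and all 4 also held ATATAA, while Hbb-bt alone among them held CCAAT 3 times. The Alas2 window held CACCC 3 times and GATAA 1 time, and neither CCAAT nor ATATAA. No motifs overlapped each other in these windows. Among 32851 promoter windows of the same length, 27.2% held CACCC, 18.9% CCAAT, 8.55% GATAA and 3.74% ATATAA. These are matches of letters and not sites of binding.

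Levels are given as TPM, each gene's share of the transcript pool corrected for length, so that levels of different genes can be compared. Over all genes the TPM add up to 1005325 for KO and 994702 for WT. Differences are on the scale log2((KO TPM + 1)/(WT TPM + 1)), which understates those of low genes. A second deposited table holds the authors' mean of each library for 16318 genes, which are read estimates divided by a size factor. Its steps give about 22086688 reads in KO and 29710410 in WT, and from these reads come the 95% Clopper-Pearson intervals of the KO to WT ratio of the authors' means, called counting intervals and given on the log2 scale. They cover counting error only, neither the spread between mice nor the error of splitting reads between copies. Pgrmc1 itself was at 0.68 TPM in KO against 949.49 TPM in WT, as the labels say. Hepatocyte markers were high in both libraries, with a summed level of 94348 TPM in KO against 97690 TPM in WT for 10 genes.

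Of the 6 members, 1 gene, Hbb-bs, was past the fold used to call a gene lower (at most 0.6 on the TPM + 1 scale), and none was past the fold used to call a gene higher (at least 1.4). Among the 22847 genes listed above 0 in both libraries, 0.166% were called lower and 0.665% higher. Because the members were proposed with the difference of Hbb-bs known, nothing is read from this count.

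Hbb-bs was at 41.29 TPM in KO against 77.14 TPM in WT, a log2 difference of -0.89. It was the lowest of the 4 globin members in both libraries. Its mean rested on 231 estimated reads in KO and 564 in WT, and the log2 counting interval was -1.08 to -0.63. Hbb-bt was at 78.98 TPM in KO against 95.69 TPM in WT, a log2 difference of -0.27. Here the deposited tables differed in sign, since the authors' means of Hbb-bt were 617 in KO and 598 in WT, a log2 ratio of 0.04 with an interval of -0.12 to 0.21. The lower TPM of Hbb-bt in KO was thus not matched by its mean.

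Hba-a1 was at 683.2 TPM in KO against 600.28 TPM in WT, a log2 difference of 0.19, with a counting interval of 0.07 to 0.20. Hba-a2 was at 490.45 TPM in KO against 542.1 TPM in WT, a log2 difference of -0.14, while its means gave -0.0084 with an interval of -0.08 to 0.06. In TPM the alpha copies thus differed between the libraries in opposite directions, and Hba-a1 was 1.39 times Hba-a2 in KO and 1.11 times in WT.

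Alas2 has no near-identical copy among the members, and its estimated reads were whole numbers in both libraries. It was at 118.23 TPM in KO against 113.62 TPM in WT, a log2 difference of 0.06, on 3004 and 3854 estimated reads. The ratio of its means was 1.05, with a log2 interval whose lower end was 0.0049 and whose upper end was 0.14. Alas2 ranked 886th by TPM in KO and 903rd in WT among all genes of the table.

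Slc4a1 was the scarcest member, at 0.53 TPM in KO against 0.35 TPM in WT, a log2 difference of 0.18. Its means rested on 32 estimated reads in KO and 28 in WT and had a ratio of 1.54, with a log2 interval of -0.15 to 1.41. A difference of this gene was not detectable at this depth. It ranked 12597th by TPM in KO and 13141st in WT, far below the other members. Slc4a1 was at 0.448% of the level of Alas2 in KO and 0.308% in WT. The label of the set as red cell genes therefore rests on the globins and Alas2, which were abundant, while this membrane gene was low.

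**Figure D1:**
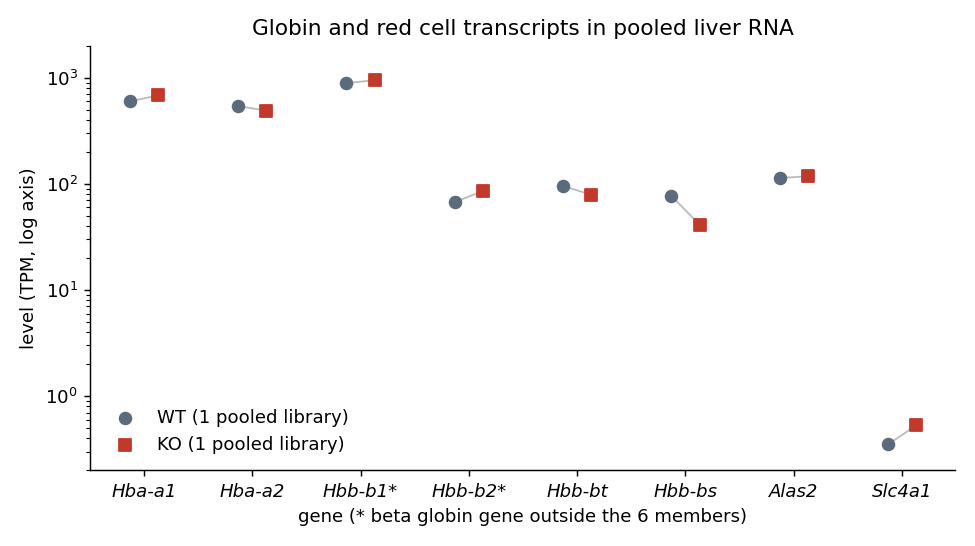
Level of each member and of the beta globin genes Hbb-b1 and Hbb-b2 in the WT library (circles) and the KO library (squares), in TPM on a log axis; each point is 1 library made from 5 mice. Hbb-bs (41.29 TPM in KO, 77.14 TPM in WT) is the member with the widest gap between the libraries, and Slc4a1 (0.53 TPM in KO, 0.35 TPM in WT) is the lowest.

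The sums over copies give the hemoglobin chains. The alpha sum was 1173.65 TPM in KO against 1142.38 TPM in WT, a log2 difference of 0.04 (counting interval 0.03 to 0.12). The sum of Hbb-bs and Hbb-bt was 120.27 TPM in KO against 172.83 TPM in WT, a log2 difference of -0.52, and the authors' means gave -0.29 (interval -0.42 to -0.16). All 4 globin members together were at 1293.92 TPM in KO against 1315.21 TPM in WT, a log2 difference of -0.02, where the means gave 0.03 (interval -0.01 to 0.07). The alpha sum was 9.76 times the sum of Hbb-bs and Hbb-bt in KO and 6.61 times in WT, so these beta members stood far below the alpha members in both libraries, although hemoglobin holds both chains in equal number.

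Most of the beta globin signal was listed under other symbols. The gene annotation that RSEM used is not given in the sources used here, so how the symbols Hbb-b1 and Hbb-b2 were placed on the C57BL/6 genome was not checked, and which reads their levels stand for is not known. Hbb-b1, the major adult beta globin gene of its haplotype, was at 951.82 TPM in KO against 889.32 TPM in WT, a log2 difference of 0.10 (counting interval 0.07 to 0.17). Hbb-b2, the minor one, was at 85.69 TPM in KO against 67.49 TPM in WT, a log2 difference of 0.34. Its means gave a log2 ratio of 0.04 (counting interval -0.12 to 0.21), so its higher TPM in KO was not matched by its mean. The authors' means of Hbb-b2 were the same as those of Hbb-bt in both libraries. Among 1765 genes with at least 100 estimated reads that were not whole numbers in both libraries, these 2 were the only genes to share both means with another gene. Hbb-b1 held 82.2% of the TPM of the 4 beta genes in KO and 78.7% in WT, Hbb-b2 held 7.40% and 5.97%, Hbb-bt 6.82% and 8.47%, and Hbb-bs 3.57% and 6.83%. In TPM, Hbb-bs and Hbb-bt thus had a smaller share in KO, and Hbb-b1 and Hbb-b2 a larger one. On the authors' means, Hbb-bt and Hbb-b2 had equal shares within each library, so their opposite changes of share were seen in TPM only.

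Summed over all 4 beta genes, beta globin was at 1157.78 TPM in KO against 1129.64 TPM in WT, a log2 difference of 0.04 (counting interval 0.02 to 0.11). This sum was chosen after the values had been seen, because Hbb-b1 and Hbb-b2 are beta globin genes of the table outside the 6 members. With it, the alpha to beta ratio was 1.01 in KO and 1.01 in WT. The level listed under Hbb-b1 makes up most of this sum, so the sum depends little on the level listed under Hbb-bs. With the other genes kept at their WT levels, the KO levels of Hbb-bs and Hbb-bt would move the sum by -0.07 (log2). The KO level of Hbb-bs alone would move it by -0.05. These values take the levels as listed, and whether reads listed under Hbb-b1 came from Hbb-bs or Hbb-bt was not tested. The KO ratio divided by the WT ratio was 0.0035 on the log2 scale, and the means gave an interval of -0.06 to 0.07. Of the smaller sums, Hbb-bs with Hbb-b1 was at 993.11 TPM in KO against 966.46 TPM in WT, and Hbb-bt with Hbb-b2 at 164.67 TPM in KO against 163.18 TPM in WT. What part the split of reads between copies had in the difference of Hbb-bs was not tested.

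**Figure D2:**
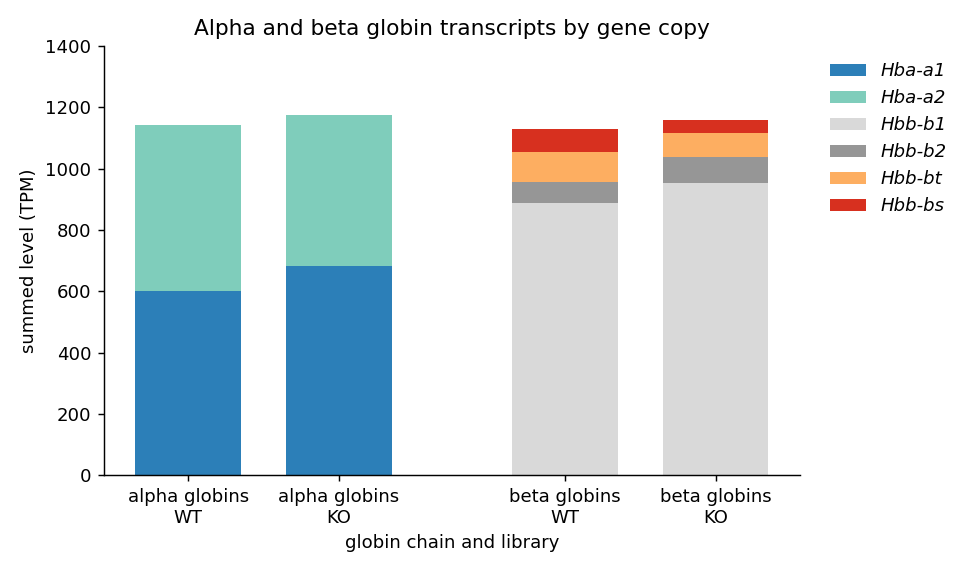
Summed level of the alpha globin genes (left) and the beta globin genes (right) in the WT and KO libraries, in TPM from 0, with each gene copy as a segment. The alpha bars are 1142.38 TPM (WT) and 1173.65 TPM (KO) and the beta bars 1129.64 TPM (WT) and 1157.78 TPM (KO), while the Hbb-bs segment is 77.14 TPM in WT and 41.29 TPM in KO.

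All 6 alpha and beta genes together were at 2331.43 TPM in KO against 2272.02 TPM in WT, a ratio of 1.03 and a log2 difference of 0.04 (counting interval 0.04 to 0.10). They made up 0.232% of all TPM in KO and 0.228% in WT. Set against Alb, the albumin gene of hepatocytes, they came to 4.94% of its level in KO and 4.57% in WT. Alas2 was at 5.07% of the 6 globin genes in KO and 5.0% in WT, so the heme enzyme and the globins kept nearly the same proportion in both libraries. In bulk liver RNA, the number of red cells and the RNA per red cell cannot be told apart in any of these values. For comparison, the median log2 difference over the 11623 genes with an average of at least 1 TPM was -0.01, with 5th and 95th percentiles of -0.27 and 0.27, and every sum over the full set of alpha or beta copies lay within that range.

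**Figure D3:**
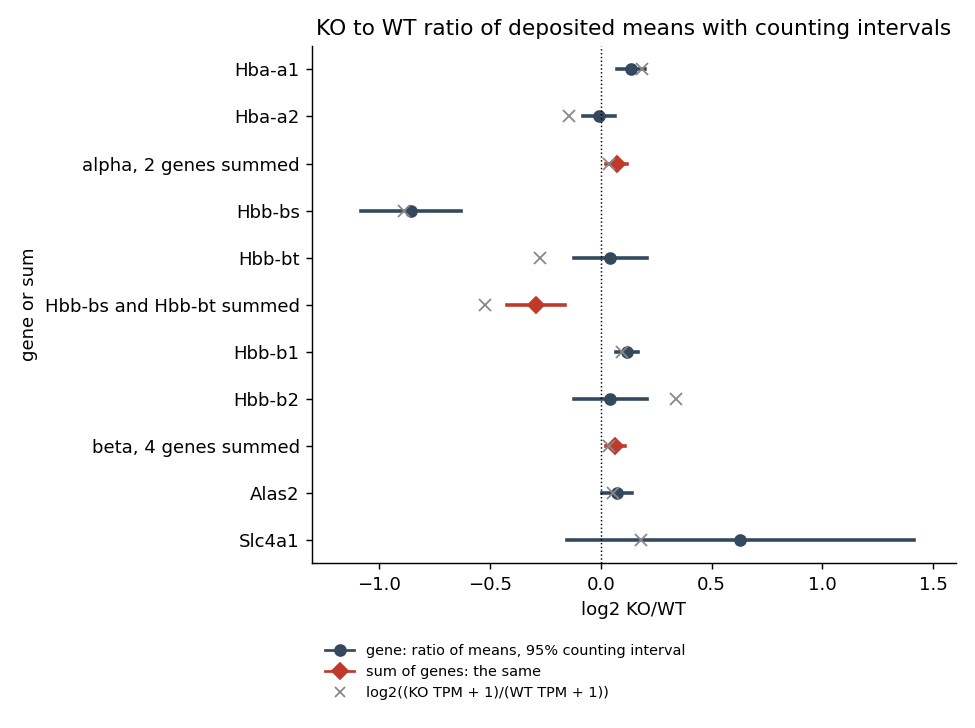
Log2 ratio of KO to WT for each member, for Hbb-b1 and Hbb-b2, and for sums of copies: circles (genes) and diamonds (sums) give the ratio of the authors' means with its 95% counting interval, and crosses the log2 difference of TPM + 1. The interval of Hbb-bs (-1.08 to -0.63) lies far from 0, and those of the alpha sum (0.03 to 0.12) and of the sum of 4 beta genes (0.02 to 0.11) lie just above 0.

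The other genes of the globin family were at or near the level of genes with no reads. Hbb-y, Hbb-bh1 and Hba-x, which make embryonic globin chains, were at 0.16 TPM each in KO against 0.12, 0.12 and 0.13 TPM in WT. Hbb-bh2 was at 0.18 TPM in KO against 0.14 TPM in WT, Hbq1b, a theta globin gene, at 0.19 and 0.12 TPM, and its copy Hbq1a at 0.57 and 0.34 TPM on 3 and 2 estimated reads. Genes whose mean is 0 in the second table had a median of 0.05 TPM in KO (95th percentile 0.285) and of 0.04 TPM in WT (95th percentile 0.21), so the values other than those of Hbq1a do not stand out from genes with no reads. Hbq1a apart, these genes are outside the second table, and the 6543 such genes with TPM above 0 in both libraries had a median KO to WT ratio of 1.30. Of the globins found outside red cells, Cygb, which liver stellate cells express, was at 4.13 TPM in KO against 3.98 TPM in WT, Mb (myoglobin) at 0.24 and 0.18 TPM, and Ngb (neuroglobin) at 0.34 and 0.04 TPM on 6 and 0 estimated reads. Hbb-bh0 was not analysed here.

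Other red cell genes were described by 4 lists. None of the 55 genes of these lists was past the fold in either direction. Among the 22847 genes listed above 0 in both libraries, 0.166% were called lower and 0.665% higher, so nothing is read from this count. For the 22 genes with an average below 1 TPM, the TPM + 1 scale also leaves little room to pass the fold. Of the 55 genes, 33 had an average of at least 1 TPM. Their median log2 difference was 0.01, with 17 genes above 0 and 16 below, beside a median of -0.01 and 45.8% above 0 for all genes at that level. Several of these genes are also active in liver cells, so a list value is not that of blood alone.

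Of 16 red cell membrane genes, 3 had an average of at least 1 TPM. Gypc, for glycophorin C, was at 3.98 TPM in KO against 2.80 TPM in WT, a log2 difference of 0.39 (counting interval 0.13 to 0.92). Aqp1, a water channel that vessels and bile ducts also express, was at 53.73 and 53.26 TPM, and Epb41, for protein 4.1 of the membrane skeleton, at 37.47 and 37.98 TPM. Other genes particular to red cells were, like Slc4a1, close to 0. Epb42 (protein 4.2) was at 0.13 TPM in KO against 0.06 TPM in WT, and Rhag (the Rh-associated glycoprotein) at 0.07 and 0.02 TPM.

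Of 15 genes of the red cell cytosol and of red cell maturation, 12 had an average of at least 1 TPM, with a median log2 difference of 0.04, 7 above 0 and 5 below. The highest was Isg20, an exonuclease gene, at 2.86 TPM in KO against 2.24 TPM in WT (0.25). The lowest was Bnip3l, whose product clears mitochondria from reticulocytes, at 44.63 TPM in KO against 50.62 TPM in WT (-0.18). Ahsp, for the chaperone of free alpha globin, was not analysed here.

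Among 9 genes for erythroid regulators, 3 had an average of at least 1 TPM, with a median log2 difference of -0.27. Klf1, the factor that drives adult beta globin transcription, was at 1.72 TPM in KO against 2.38 TPM in WT, a log2 difference of -0.31 on 32 and 60 estimated reads (counting interval -1.14 to 0.17). Lmo2, a bridging protein of the erythroid complex, was at 3.11 and 3.97 TPM (-0.27), and Zfpm1, the partner of Gata1, at 18.72 and 18.28 TPM (0.03). Gata1, the master factor of red cell formation, was listed at 0.04 TPM in KO against 0.03 TPM in WT. Genes whose mean is 0 had medians of 0.05 TPM in KO and 0.04 TPM in WT, so Gata1 does not stand out from genes with no reads. Lmo2 rested on 57 and 99 estimated reads (counting interval -0.86 to 0.12) and Zfpm1 on 848 and 1109 (-0.08 to 0.18). The intervals of all 3 genes, Klf1 among them, included 0.

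All 15 genes of heme synthesis and red cell iron had an average of at least 1 TPM, most of them being active in hepatocytes as well. Their median log2 difference was -0.02, with 7 above 0 and 8 below. Steap3, the ferrireductase of the transferrin cycle, was the highest, at 8.82 TPM in KO against 7.13 TPM in WT (0.27, counting interval 0.11 to 0.54). Tfrc, the transferrin receptor, was the lowest, at 10.84 TPM in KO against 13.20 TPM in WT (-0.26, interval -0.41 to -0.14). Alas1, the housekeeping counterpart of Alas2, was at 174.74 and 179.6 TPM (-0.04) and is named beside Alas2 after its values had been seen.

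**Figure D4:**
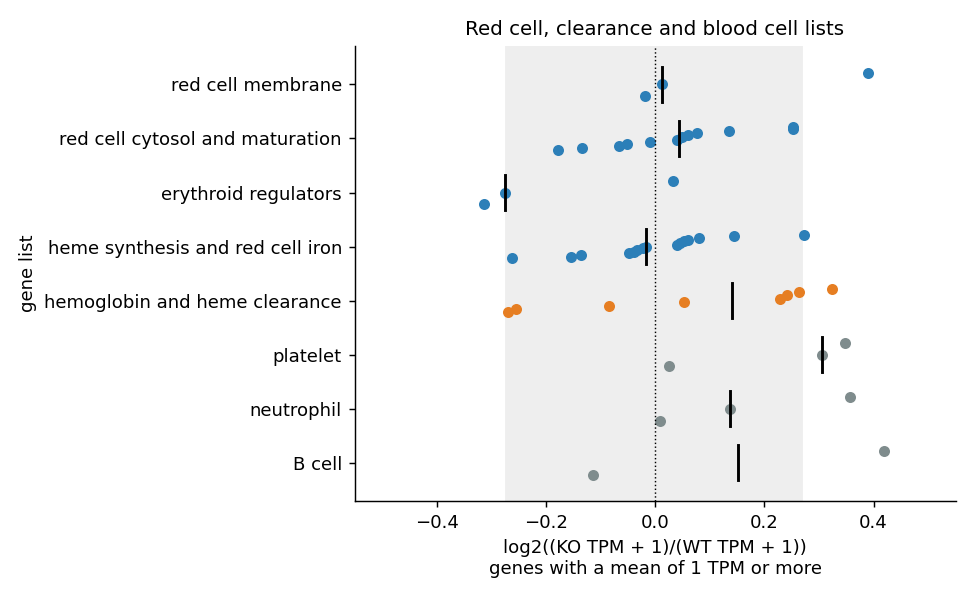
Log2 difference of each gene with an average of at least 1 TPM in the 4 red cell lists (blue), the list for clearance of hemoglobin and heme (orange) and the platelet, neutrophil and B cell lists (gray); black bars are list medians and the shaded band runs from the 5th to the 95th percentile of all such genes (-0.27 to 0.27). The red cell lists spread around 0, from -0.31 for Klf1 to 0.39 for Gypc.

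Genes that clear hemoglobin and heme were described beside the members, and whether their levels follow the blood in the liver was not tested. All 8 had an average of at least 1 TPM, with a median log2 difference of 0.14, 5 above 0 and 3 below. Cd163, the macrophage receptor for hemoglobin bound to haptoglobin, was the highest, at 13.11 TPM in KO against 10.27 TPM in WT (0.32, counting interval 0.22 to 0.50). Hp (haptoglobin) was at 2437.23 TPM in KO against 2030.82 TPM in WT (0.26), and Hpx (hemopexin) at 3648.39 and 3084.67 TPM (0.24), both named after their values had been seen. Spic, which directs the formation of iron-recycling macrophages, was the lowest, at 1.24 and 1.70 TPM (-0.27) on 18 and 34 estimated reads, and Hmox1, for heme oxygenase, was at 14.74 and 17.77 TPM (-0.25, interval -0.47 to -0.04), also named after its value had been seen.

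Blood brings other cells into the liver, and their markers were low. Over 52 marker genes of platelets, neutrophils, B cells, T and NK cells and monocytes, the summed level was 31.54 TPM in KO against 27.89 TPM in WT, and 8 genes had an average of at least 1 TPM, 7 of them above 0 on the log2 scale and 1 below, with a median of 0.22. Over the 45 genes with an average of at least 0.1 TPM the median was 0.038. For each of the 8 the counting interval included 0. Platelet markers summed to 7.73 TPM in KO against 5.41 TPM in WT, with Pf4 highest at 3.24 and 2.33 TPM and Itga2b lowest at 1.24 and 1.2 TPM. Neutrophil markers summed to 10.41 and 9.54 TPM, with S100a9 at 3.83 and 2.77 TPM and S100a8 at 2.25 and 2.23 TPM. B cell markers summed to 5.19 TPM in KO against 4.62 TPM in WT, with Cd79b at 1.38 and 0.78 TPM and Bank1 at 1.43 and 1.63 TPM. T and NK cell markers summed to 4.03 and 4.86 TPM and monocyte markers to 4.18 and 3.46 TPM, with no gene at an average of 1 TPM. Nkg7, a granule gene of T and NK cells, was the only gene of the blood cell lists past the fold. Over the 22847 genes listed above 0 in both libraries, 0.166% were called lower and 0.665% higher. Nkg7 was at 0.11 TPM in KO against 1.08 TPM in WT on 0 and 12 estimated reads, and is named after its values had been seen. The globin sums stood far above all of these, and the part of other blood cells in the globin values was not tested.

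Over 2 libraries, likeness to a gene can mean only a like difference. The genes with an average of at least 10 TPM whose log2 difference lay nearest that of the sum of Hbb-bs and Hbb-bt (-0.52) were Upp2 (-0.52), Fkbp5 (-0.53), Apoa4 (-0.51), Hyou1 (-0.51) and Dnajb9 (-0.53). None of these 5 is a red cell gene of the lists.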

How the data were processed

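Per the labels and the paper's methods, the authors made read files with CASAVA 1.8.2, aligned them to mm10 with Bowtie and estimated levels with RSEM 1.2.09. Values used were the deposited posterior mean TPM and, from a second deposited table made with EBSeq, the authors' mean signal of each library, read estimates divided by a size factor. The authors' fold and probability columns of that table were not used. TPM columns were assigned to KO and WT by the labels' titles, and the mean columns by the comparison that their table names and the study's own headings for them. The value of 1 read was the most frequent low mean (1.16 in KO, 0.860 in WT). Within a tolerance of 0.02 reads, 78.4% of KO and 75.0% of WT values were whole, so no count test was run.

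No p-value was computed, since each genotype is 1 library. Genes named were the members, Pgrmc1, the other globin genes, Epb42, Rhag, Ahsp, Klf1, Gata1 and Gypc, the highest and lowest gene of each list at a mean of at least 1 TPM, and the 5 genes nearest the sum of Hbb-bs and Hbb-bt; others are marked, and some genes of the rule are not reported here. In the hepatocyte list these were Fgb (0.09) and Ass1 (-0.47). Of 144 listed genes, 142 were found. The members and lists were chosen with earlier results of these data known. Fold calls and intervals were tried on simulated counts that held counting error only. The simulation had no spread between mice and no splitting of reads between copies, so it does not cover those errors. Software was Python 3.11.15, scipy 1.17.1, numpy 2.4.6, matplotlib 3.10.9 and pandas 2.3.3.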

Additional observations from a re-analysis of the deposited data

How the results depend on the processing

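Of 55 alternatives, 40 moved their result by no more than its own error or tolerance, 14 moved it further and 1 replaced Hbb-bs by a sum of the other sign. Some of the 40 could hardly move a result, so their number is no measure of robustness. Centring only subtracted the median of all genes (-0.013), and a pseudocount of 0.1 TPM changes little for abundant genes. Among the 40, Slc4a1 went from 0.18 to 0.49 with a pseudocount of 0.1 TPM and to 0.61 on the authors' means, within its wide interval. On the authors' means instead, the sum of Hbb-bs and Hbb-bt was -0.29 on the log2 scale, the sum of 4 globin members 0.030, Hbb-bt 0.044, Hba-a2 -0.0084, the KO to WT quotient of alpha to beta ratios 0.36, and the blood cell lists had a median of 0.35. With Hbb-b1 and Hbb-b2 added after seeing the data, the sum of 4 beta genes was 0.035, beside -0.89 for Hbb-bs. The level listed under Hbb-bs is so small a share of that sum that the sign is that of Hbb-b1 as listed. All globins came to 0.037 and the quotient to 0.0035. Members past the fold numbered 0 with folds of 2 and 0.5, and 2 (Hbb-bs lower, Slc4a1 higher) with a pseudocount of 0.1 TPM and with the means. The blood cell lists had a median of 0.038 from 0.1 TPM upward (45 genes) and of 0.32 with that pseudocount; from 10 TPM upward no gene was left. The red cell lists had medians of -0.0010 and -0.0017 from 0.1 and 10 TPM upward. The other causes were not tested. Depth limits Slc4a1, Klf1 and the blood cell markers. No paired analysis was possible because there is 1 library per genotype.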
